A study of Mus musculus with 9 samples.

Results

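Cytochrome P450 enzymes are heme proteins that insert an oxygen atom into fats, steroids, vitamins and foreign compounds. The genes described here are all those of the deposited expression table whose Ensembl identifier carries a mouse symbol of Cyp followed by a digit, 100 of 21930 genes. They fall into 17 families and 40 subfamilies, and all 100 are annotated as protein coding. Nasal mucosa is known for a strong P450 complement: enzymes of families 1 to 3 oxidise odorants and inhaled chemicals in olfactory and respiratory epithelium, and members of family 4 hydroxylate fatty acids and the eicosanoids made from arachidonic acid. Most microsomal P450s take electrons from the reductase Por, while the mitochondrial ones take them from the ferredoxin Fdx1 and its reductase Fdxr.

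The data are poly(A) RNA sequencing libraries of nasal mucosal tissue from mice of WT genotype, 9 in all. The 3 control libraries carry the treatment label none. The 3 eCRS libraries came from mice given papain, a plant cysteine protease, into the nose (20 µg in 20 µl of PBS) on days 0 to 2 and again on days 7 to 11. The 3 eCRS_Exo libraries came from mice that received papain in the same way. On days 7 to 11 they also received MSC-Exos, which are mesenchymal stem cell exosomes. The protocol gives PBS in place of exosomes over the same days and killing on day 12, and it does not say whether controls received PBS. The labels give no age, and nothing in them ties libraries to individual mice. The p-values thus reflect spread among libraries that may be technical repeats.

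Expression is given in FPKM, the fragments per kilobase of a transcript relative to the depth of the library. Depth was roughly estimated from low values, within a search window that allowed only 12.5 to 33.3 M fragments (M, mega). It came out at 15.1 to 24.6 M per library, which is no measured depth. FPKM depends on what else a library holds: as deposited, the median log2 change over all tested genes was 0.19 for eCRS against control, 0.56 for eCRS_Exo against eCRS and 0.76 for eCRS_Exo against control. Each comparison was therefore also made after dividing every library by its median ratio to the geometric mean of all libraries (the scaled values), which left those medians at -0.00399, -0.00587 and 0.00915. The size factors were 0.763 to 0.765 in control, 0.71 to 1.07 in eCRS and 1.18 to 1.75 in eCRS_Exo. A gene is called where limma's adjusted p was under 0.05, and the genes that lead the account were called on both scales. Olfactory, glandular, ciliated, basal, goblet, macrophage and fibroblast marker genes all had a mean of at least 1 FPKM over the 9 libraries. So did 3 of 4 neutrophil and 2 of 4 endothelial markers, but 0 of 4 eosinophil markers. The tissue is thus a mixture, and in such bulk samples fewer cells of a type and less RNA per cell cannot be told apart.

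Near-identical gene pairs limit what can be read for some members, and their sequences show why. The first pair is Cyp2a5, a coumarin and nicotine hydroxylase abundant in olfactory mucosa, and Cyp2a4, a steroid hydroxylase. Below are the 250 bases before the RefSeq start of each gene (GRCm38.p6, plus strand), Cyp2a5 at chr7:26835089-26835338 and Cyp2a4 at chr7:26306942-26307191, with the 4 bases that differ among 249 aligned ones in capitals. Both hold the letters TATAAA, 29 bases before the start in Cyp2a5 and 28 in Cyp2a4.
Cyp2a5: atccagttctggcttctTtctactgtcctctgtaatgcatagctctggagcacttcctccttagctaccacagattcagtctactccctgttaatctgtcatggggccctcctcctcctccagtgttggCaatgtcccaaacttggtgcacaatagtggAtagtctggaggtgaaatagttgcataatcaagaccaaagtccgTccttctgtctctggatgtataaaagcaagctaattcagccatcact
Cyp2a4: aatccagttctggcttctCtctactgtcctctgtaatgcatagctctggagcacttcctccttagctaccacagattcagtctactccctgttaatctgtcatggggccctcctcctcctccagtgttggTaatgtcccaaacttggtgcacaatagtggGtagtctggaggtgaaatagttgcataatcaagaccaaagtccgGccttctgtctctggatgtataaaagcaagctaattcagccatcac
The upstream sequences were 98.4% identical and the coding sequences also 98.4%, with 23 of 1482 bases differing. Despite this, the level of Cyp2a5 was 176 to 353 times that of Cyp2a4 in each library.

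The second pair is Cyp4a12a and Cyp4a12b, omega-hydroxylases of arachidonic acid, on which the comparison of eCRS with control turns. Their coding sequences differ at 23 of 1524 bases (98.5% identical), and 40.8% of the 75-base stretches in the Cyp4a12a transcripts also occur in those of Cyp4a12b. The 120-base window below, coding bases 644 to 763 in GENCODE M21 (GRCm38, plus strand, chr4:115326642-115326761 and chr4:115432895-115433014), is shown because it holds 8 of the differences, in capitals.
Cyp4a12a: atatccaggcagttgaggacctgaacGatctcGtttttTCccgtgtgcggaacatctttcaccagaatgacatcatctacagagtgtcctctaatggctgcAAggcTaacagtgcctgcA
Cyp4a12b: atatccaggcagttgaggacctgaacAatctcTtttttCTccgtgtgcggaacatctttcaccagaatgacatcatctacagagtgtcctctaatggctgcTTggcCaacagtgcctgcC
How reads that fit both genes were shared out is not given in the sources used here, so the split between these 2 genes, and between Cyp2a5 and Cyp2a4, is uncertain.

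For the 3 other members called on both scales, the 250 bases before the RefSeq start follow (GRCm38.p6, plus strand), Cyp2f2 at chr7:27119705-27119954, Cyp4f15 at chr17:32685409-32685658 and Cyp2b19 at chr7:26756892-26757141, shown because the comparisons below turn on these genes. Capitals mark the nuclear receptor half-site AGGTCA in Cyp2f2, 221 bases before the start, and in Cyp2b19, 121 bases before it. In Cyp4f15 they mark the reverse complements of the GC box GGGCGG, 231 bases before the start, and of CCAAT, 78 bases before it.
Cyp2f2: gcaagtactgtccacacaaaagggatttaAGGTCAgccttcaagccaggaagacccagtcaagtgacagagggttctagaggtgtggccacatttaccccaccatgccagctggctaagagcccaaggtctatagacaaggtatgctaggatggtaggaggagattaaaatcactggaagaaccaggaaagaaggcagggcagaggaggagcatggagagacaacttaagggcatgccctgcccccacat
Cyp4f15: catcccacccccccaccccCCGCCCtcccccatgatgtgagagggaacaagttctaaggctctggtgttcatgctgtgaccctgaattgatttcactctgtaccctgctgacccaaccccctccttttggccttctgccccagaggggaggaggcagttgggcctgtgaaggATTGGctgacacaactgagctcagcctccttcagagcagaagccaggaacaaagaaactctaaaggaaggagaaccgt
Cyp2b19: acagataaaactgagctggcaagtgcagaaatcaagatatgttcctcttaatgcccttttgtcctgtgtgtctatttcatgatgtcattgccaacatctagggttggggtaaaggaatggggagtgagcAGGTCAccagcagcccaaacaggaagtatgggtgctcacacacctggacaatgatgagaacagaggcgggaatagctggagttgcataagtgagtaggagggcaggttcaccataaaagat
Searched on both strands, AGGTCA was present in 2 of the 26 tested members that have an entry in the promoter table, Cyp2f2 and Cyp2b19, and in 14% of all 32851 promoters. TATAAA was present in 6 of the 26 against 12.4%, CCAAT in 11 against 33.8% and GGGCGG in 14 against 32.7%. The core of the dioxin response element, GCGTG, was present in 11 against 28.2%, among them Cyp1a1 and Cyp1b1 but not Cyp1a2. A member was counted where any of its promoter entries matched, while the percentages are shares of single entries. The member counts and the percentages are therefore not directly comparable. These matches describe the letters only.

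Most P450 genes were silent or nearly so in this tissue. Of the 100, 26 were listed at 0 in every library, another 39 stayed below 1 FPKM in all of them, and 2, Cyp4f40 and Cyp26a1, reached 1 FPKM in 1 or 2 libraries. The other 33 reached 1 FPKM in at least 3 libraries and were tested as deposited. After scaling 32 were tested, without Cyp4f39.

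Most silent members belonged to the subfamilies Cyp2c, Cyp2d, Cyp3a and Cyp4a, known chiefly from liver and kidney. All 15 Cyp2c genes, which include drug and arachidonic acid oxidases of liver, stayed below 1 FPKM and 9 of them were at 0 throughout. Their highest single value was 0.602 FPKM, for Cyp2c65 in an eCRS_Exo library. Of 8 Cyp2d genes 4 were at 0 and only Cyp2d22 was tested. Of 9 Cyp3a genes 5 were at 0 and only Cyp3a13 was tested. Among 8 Cyp4a genes 3 were at 0, and Cyp4a12a and Cyp4a12b were tested. Cyp7a1, the rate-limiting enzyme of bile acid synthesis, and both Cyp11b genes of the adrenal cortex were also listed at 0 everywhere. Hepatocyte markers (5 genes, among them Alb) summed to only 0.118 to 0.361 FPKM per library.

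In the genome, summed P450 expression was concentrated on chromosome 7, while the tested members were spread more widely, with 8 on chromosome 7, 7 on chromosome 17 and 6 on chromosome 4. The chromosome 7 cluster from 25802475 to 27158668 (GRCm38) holds 13 members, of which none was silent throughout and 7 were tested, and it supplied 91.1% to 93.5% of the summed P450 FPKM of each library. The cluster on chromosome 19 (39007019 to 40187333) holds 14 Cyp2c genes, 9 silent and 0 tested. The Cyp3a cluster on chromosome 5 (145345279 to 146113287) has 8 members, 5 silent and 0 tested. By contrast, the Cyp4f cluster on chromosome 17 (32452723 to 32947402) has 8 members with none silent and 5 tested.

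**Figure D1:**
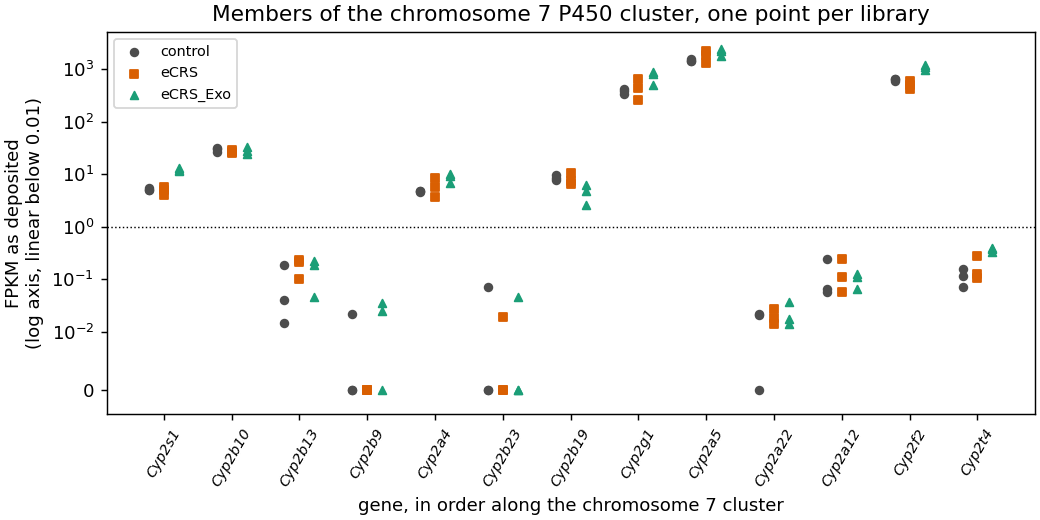
FPKM as deposited (log axis, linear below 0.01) of the 13 members of the chromosome 7 cluster in their order along the chromosome, 1 point per library, with a dotted line at 1 FPKM. Cyp2g1, Cyp2a5 and Cyp2f2 stand highest, at 254 FPKM or more in every library, while Cyp2b9, Cyp2b23, Cyp2b13, Cyp2a22, Cyp2a12 and Cyp2t4 stay below 1.

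Expression was concentrated in 3 genes of that cluster. Cyp2a5, Cyp2f2, which activates naphthalene in airway club cells, and Cyp2g1, an olfactory mucosa enzyme, together made up 90.0% to 92.2% of the summed P450 FPKM of every library. Cyp2a5 alone ranged from 1306 to 2350 FPKM (chromosome 7, 26835305 to 26843548), Cyp2f2 from 423 to 1191 and Cyp2g1 from 254 to 861. Next came Cyp1a2, an aromatic amine and caffeine oxidase, at 31.4 to 153 FPKM. Among tested members 3 had a mean above 100 FPKM, 6 a mean of 10 to 100, and 24 a mean under 10. The 6 were Cyp1a2, Cyp2b10, Cyp2j6, Cyp4a12b, Cyp4b1 and Cyp27a1.

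**Figure D2:**
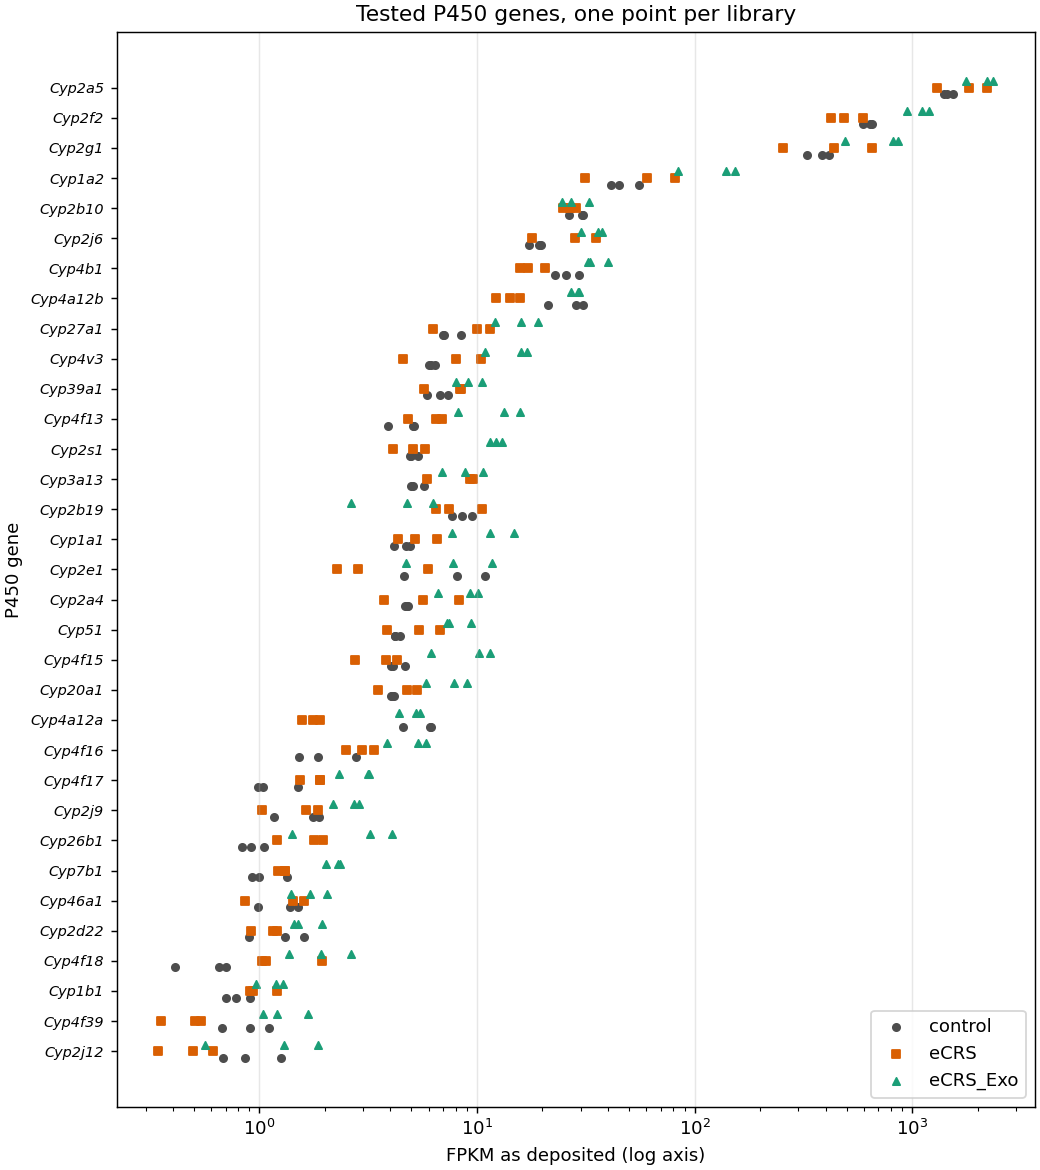
FPKM as deposited (log axis) of the 33 tested P450 genes, ordered by mean, 1 point per library and a colour and symbol per group. Cyp2a5, Cyp2f2 and Cyp2g1 lie apart from the rest, and the eCRS points of Cyp4a12a lie below all control and eCRS_Exo points.

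The P450 genes together took 0.352% ± 0.0342 of a library's total FPKM in control (SD, n = 3), 0.418% ± 0.14 in eCRS and 0.799% ± 0.227 in eCRS_Exo. The eCRS_Exo libraries, at 0.537% to 0.947%, overlapped with eCRS, at 0.272% to 0.551%. On scaled values the order was the reverse: the sum was 3543 ± 117.5 in control, 3218 ± 255.4 in eCRS and 2901 ± 185.5 in eCRS_Exo. All 3 eCRS_Exo sums (2688 to 3029) lay below all control sums (3419 to 3653). The direction of the total therefore depends on the scale.

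The comparison of eCRS with control asks what papain exposure did. As deposited, 0 of 33 tested members were called higher, against 3.01% of all tested genes, and 2 were called lower, against 0.518%. On scaled values 0 of 32 were higher, against 5.77%, and 6 were lower, against 4.15%. The 2 lower on both scales, where 0.49% of genes tested on both were, were Cyp4a12a and Cyp4a12b, and 0 were higher on both, against 2.74%. At an unadjusted limma p under 0.05, 3 members were higher as deposited (Cyp2j6, Cyp3a13 and Cyp4f18) and 3 scaled (Cyp26b1, Cyp3a13 and Cyp4f18). The median log2 change of the tested members was 0.14 as deposited and -0.06 scaled, near that of all genes.

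Cyp4a12a, on chromosome 4 from 115299046 to 115332815, read 6.17, 4.58 and 6.08 FPKM in control, 1.57, 1.76 and 1.90 in eCRS, and 4.37, 5.48 and 5.26 in eCRS_Exo. Every eCRS library was lower than every library of the other groups. The mean fell from 5.61 ± 0.893 to 1.74 ± 0.169 FPKM (SD, n = 3), a log2 change of -1.26 ± 0.18 (SE; limma adjusted p = 0.000213), and -1.49 ± 0.18 after scaling (adjusted p = 0.00127). Log2 changes are differences in log2(FPKM + 1), smaller than the true log2 ratio where levels are low. The call held on both scales without each of the 9 libraries in turn.

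Its neighbour Cyp4a12b (115411624 to 115439034) read 28.4, 21.2 and 30.7 FPKM in control against 14.3, 15.7 and 12.2 in eCRS, and these groups did not overlap. Its log2 change was -0.87 as deposited (limma adjusted p = 0.00995) and -1.11 scaled (adjusted p = 0.0158). This call was lost on both scales without control 1 (adjusted p = 0.0658 as deposited, 0.0574 scaled), control 3 (0.0976 and 0.0694) or eCRS 3 (0.104 and 0.0659), and in values rescaled to a common sum (limma adjusted p = 0.269). The ratio of Cyp4a12a to Cyp4a12b, which needs no scaling, was 0.217, 0.216 and 0.198 in control and 0.110, 0.112 and 0.156 in eCRS. Every eCRS ratio was lower than every control ratio (exact 2-sided permutation p = 0.1, the smallest that 3 against 3 allows), with reads shared by the pair as the limit given above.

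In mouse liver and kidney these genes are known to be higher in males. Y-linked Ddx3y, Uty, Kdm5d and Eif2s3y were at 1.21 FPKM or more in all 9 libraries, whatever the group. Both Cyp4a12 genes lie in the same chromosome 4 cluster as Cyp4b1, an enzyme of lung that oxidises fatty acids and plant toxins. Other Cyp4a genes, silent or below 1 FPKM, lie between them and Cyp4b1. Cyp4b1 read 25.7, 22.9 and 29.3 FPKM in control and 20.6, 15.8 and 17.1 in eCRS, which do not overlap. It was called on scaled values alone, with a log2 change of -0.76 (limma adjusted p = 0.00901), and as deposited it was -0.52 (adjusted p = 0.149). The call on scaled values held without each library. Goblet cell markers (4 of 4 detected, none at 0 throughout) were at 176 to 187 scaled in control, 365 to 454 in eCRS and 159 to 223 in eCRS_Exo, highest in eCRS. On scaled values both Cyp4a12 genes were below control in eCRS_Exo as well as in eCRS. Olfactory sensory neuron markers (8 of 8) were at 606 to 748, 259 to 467 and 527 to 942, lowest in eCRS. The part of these cell types in the Cyp4a12 and Cyp4b1 values was not tested.

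The other members lower on scaled values alone were Cyp2e1, the ethanol oxidase, Cyp2f2 and Cyp4f15. Cyp2e1 varied widely within groups, at 4.64, 10.9 and 8.13 FPKM in control and 5.96, 2.28 and 2.85 in eCRS, which overlap. Its scaled log2 change was -1.18 (limma adjusted p = 0.0317), and without each of 4 of the 9 libraries (control 2, control 3, eCRS 2 and eCRS 3) the adjusted p was 0.0811 to 0.112. For Cyp2f2 the scaled change was -0.58 (limma adjusted p = 0.0205) and for Cyp4f15 -0.42 (adjusted p = 0.0195). These were lost without control 1, control 2, control 3 or eCRS 3 for Cyp2f2 (limma adjusted p = 0.0516 to 0.0982) and without control 2, control 3 or eCRS 3 for Cyp4f15 (adjusted p = 0.0567 to 0.0748).

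By role, family 4 had 10 tested members of 20, with 2 lower as deposited and, of 9 tested after scaling, 4 lower (Cyp4a12a, Cyp4a12b, Cyp4b1 and Cyp4f15) and 0 higher. The background for these counts is 0.518% of all tested genes lower as deposited, and 4.15% lower and 5.77% higher scaled. Families 1 to 3, without the vitamin D hydroxylase Cyp2r1, had 16 tested of 60, with 0 called as deposited and 2 lower after scaling, against the same shares. The retinoic acid breakdown genes had 1 tested member of 3, Cyp26b1, at 0.828, 0.918 and 1.05 FPKM in control and 1.97, 1.21 and 1.78 in eCRS. Although these groups do not overlap, its log2 change of 0.45 as deposited (limma adjusted p = 0.322) and 0.33 scaled (adjusted p = 0.172) did not pass. Cyp4f18, a leukotriene B4 hydroxylase of neutrophils, read 0.649, 0.701 and 0.408 in control and 1.07, 1.02 and 1.93 in eCRS. Its log2 change was 0.55 as deposited (limma adjusted p = 0.139) and 0.48 scaled (adjusted p = 0.0938). Summed over 4 genes, neutrophil markers on scaled values ranged from 25.3 to 43.6 in control, 52.9 to 92.3 in eCRS and 39.5 to 75.4 in eCRS_Exo, and their part in the Cyp4f18 values was not tested.

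**Figure D3:**
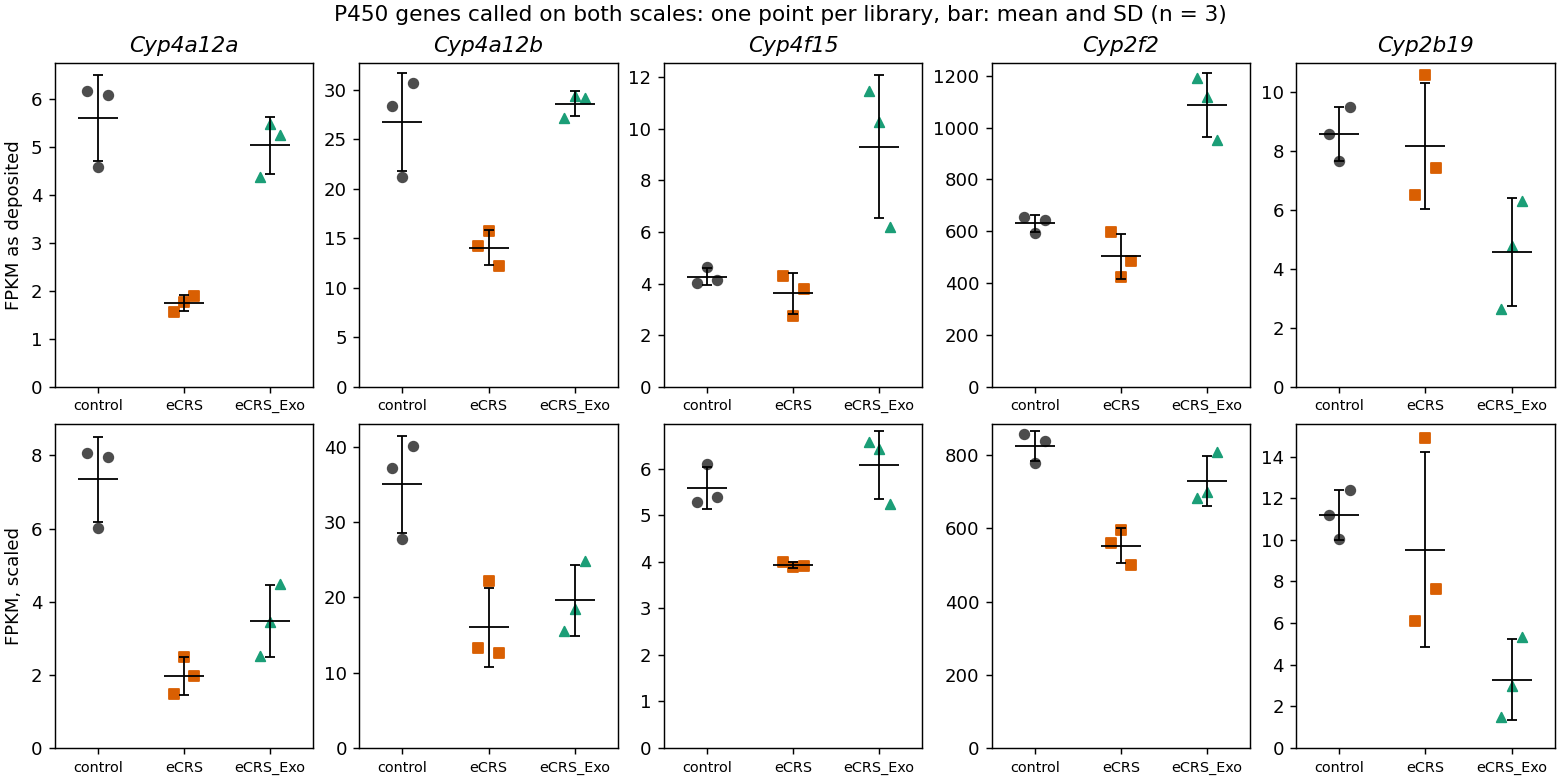
FPKM of the 5 P450 genes called on both scales in at least 1 comparison, as deposited (top) and scaled (bottom), 1 point per library with the mean and SD of each group (n = 3), axes from 0. The eCRS libraries of Cyp4a12a lie lowest in both rows, with the closest scaled values 2.48 in eCRS and 2.50 in eCRS_Exo, and Cyp2b19 is lowest in eCRS_Exo.

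The comparison of eCRS_Exo with eCRS asks what exosomes did in papain-treated mice. As deposited, 22 of 33 members were called higher, against 63% of all tested genes, and 1 was lower, against 0.73%. On scaled values 3 of 32 were higher, against 13.4%, and 3 were lower, against 16.2%. On both scales the 3 higher were Cyp4f15, Cyp2f2 and Cyp4a12a, against 13.4% of all genes, and the 1 lower was Cyp2b19, against 0.699%. The shares called higher were near or below the background.

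Cyp4f15, a fatty acid and eicosanoid hydroxylase, read 4.28, 2.76 and 3.80 FPKM in eCRS and 11.5, 10.3 and 6.17 in eCRS_Exo. The groups do not overlap, and on scaled values they are 4.0, 3.89 and 3.91 against 6.57, 6.43 and 5.25. Its log2 change was 1.13 as deposited (limma adjusted p = 0.000756) and 0.52 scaled (adjusted p = 0.00529), and it was called on both scales without each of the 9 libraries. Scaled eCRS_Exo values overlapped those of control, 5.28, 6.10 and 5.38.

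Cyp2f2 read 597, 423 and 487 FPKM in eCRS and 1191, 1116 and 952 in eCRS_Exo, with no overlap. The log2 change was 1.12 as deposited (limma adjusted p = 0.000527) and 0.40 scaled (adjusted p = 0.0409). The scaled call was lost without each single one of the 9 libraries (limma adjusted p = 0.0525 to 0.148), in a fit of the 2 groups alone (0.0839) and with no filter (0.0632). Cyp4a12a, with the values given above, had a log2 change of 1.13 as deposited (limma adjusted p = 0.000383) and 0.58 scaled (adjusted p = 0.0372). Its scaled call was lost without control 3, eCRS 1, eCRS 3, eCRS_Exo 2 or eCRS_Exo 3 (limma adjusted p = 0.0523 to 0.101), in the fit of the 2 groups alone (0.0598) and with no filter (0.076).

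Cyp4a12b read 27.1, 29.4 and 29.2 FPKM in eCRS_Exo, above every eCRS library. Its change of 0.98 as deposited (limma adjusted p = 0.000839) became 0.29 after scaling (adjusted p = 0.358). Within libraries, the ratio of Cyp4a12a to Cyp4a12b was 0.161, 0.186 and 0.180 in eCRS_Exo, above all eCRS ratios and below all control ratios (exact 2-sided permutation p = 0.1 in both comparisons, the smallest possible).

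Cyp2b19, an arachidonic acid epoxygenase of keratinocytes, went the other way. It read 6.50, 10.6 and 7.41 FPKM in eCRS and 2.62, 4.77 and 6.29 in eCRS_Exo, so that even the highest eCRS_Exo library was below the lowest eCRS library. The log2 change was -0.75 as deposited (limma adjusted p = 0.0107) and -1.31 scaled (adjusted p = 0.0202). It was lost on both scales without eCRS 2 (limma adjusted p = 0.0543 as deposited, 0.0576 scaled) or eCRS_Exo 1 (0.0915 and 0.0697), on scaled values without eCRS_Exo 2 (0.0571), and in values rescaled to a common sum (0.175).

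Markers of the lateral nasal and other nasal glands (7 of 7 detected, led by odorant-binding protein genes) moved with Cyp2b19. Their summed scaled level was 337300 to 400800 in control, 194600 to 368200 in eCRS and 60820 to 171200 in eCRS_Exo. Scaled Cyp2b19 was 6.08, 14.9 and 7.63 in eCRS libraries 1 to 3 and 1.50, 2.99 and 5.34 in eCRS_Exo libraries 1 to 3, and within each of these groups the marker sum put the libraries in the same order. Scaled Cyp2b10, a gene known for induction by foreign compounds, was 23.4, 37.5 and 29.4 in eCRS and 14.1, 17.0 and 27.8 in eCRS_Exo, again in that order. As deposited it was 25.0, 26.6 and 28.5 in eCRS, which is another order. In eCRS_Exo it was 24.7, 27.1 and 32.7 as deposited, in the same order. Scaling divides gene and marker sum by the same factor, so the match for Cyp2b10 in eCRS depends on that divisor. The part of gland content in these values was not tested. Within libraries the ratio of Cyp2b19 to Cyp2b10 was 0.260 to 0.397 in eCRS and 0.106 to 0.192 in eCRS_Exo, without overlap.

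On scaled values alone Cyp3a13, an extrahepatic member of the drug-oxidising family, and Cyp39a1, an oxysterol hydroxylase of bile acid synthesis, were lower. Cyp3a13 was 8.67, 8.33 and 9.87 scaled in eCRS against 5.04, 6.69 and 5.85 in eCRS_Exo. Its scaled change was -0.54 (limma adjusted p = 0.00675) and held without each library. As deposited it was 0.09 (adjusted p = 0.705), so its direction depends on the scale. Cyp39a1 changed by -0.35 scaled (limma adjusted p = 0.0214) and by 0.28 as deposited (adjusted p = 0.206). Its scaled call was lost without eCRS 3, eCRS_Exo 1 or eCRS_Exo 2 (limma adjusted p = 0.069 to 0.0769).

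Several members rose as deposited without passing after scaling. Cyp2s1, an epithelial P450, was 4.09, 5.09 and 5.78 FPKM in eCRS and 13.0, 11.5 and 12.3 in eCRS_Exo, a log2 change of 1.15 (limma adjusted p = 0.000356) that was 0.51 after scaling (adjusted p = 0.0644). Cyp1a2 was 81.2, 31.4 and 60.5 against 153, 140 and 84.1, with a change of 1.17 (limma adjusted p = 0.00258) and 0.46 scaled (adjusted p = 0.0923). Cyp1a1, the archetypal target of the aryl hydrocarbon receptor, changed by 0.93 (limma adjusted p = 0.00218) and by 0.29 scaled (adjusted p = 0.208). The receptor gene Ahr itself was not called on either scale in this comparison (limma adjusted p = 0.199 as deposited, 0.0501 scaled). Cyp4v3, a fatty acid hydroxylase, changed by 0.89 as deposited and 0.24 scaled, and Cyp4f13 by 0.90 and 0.25.

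**Figure D4:**
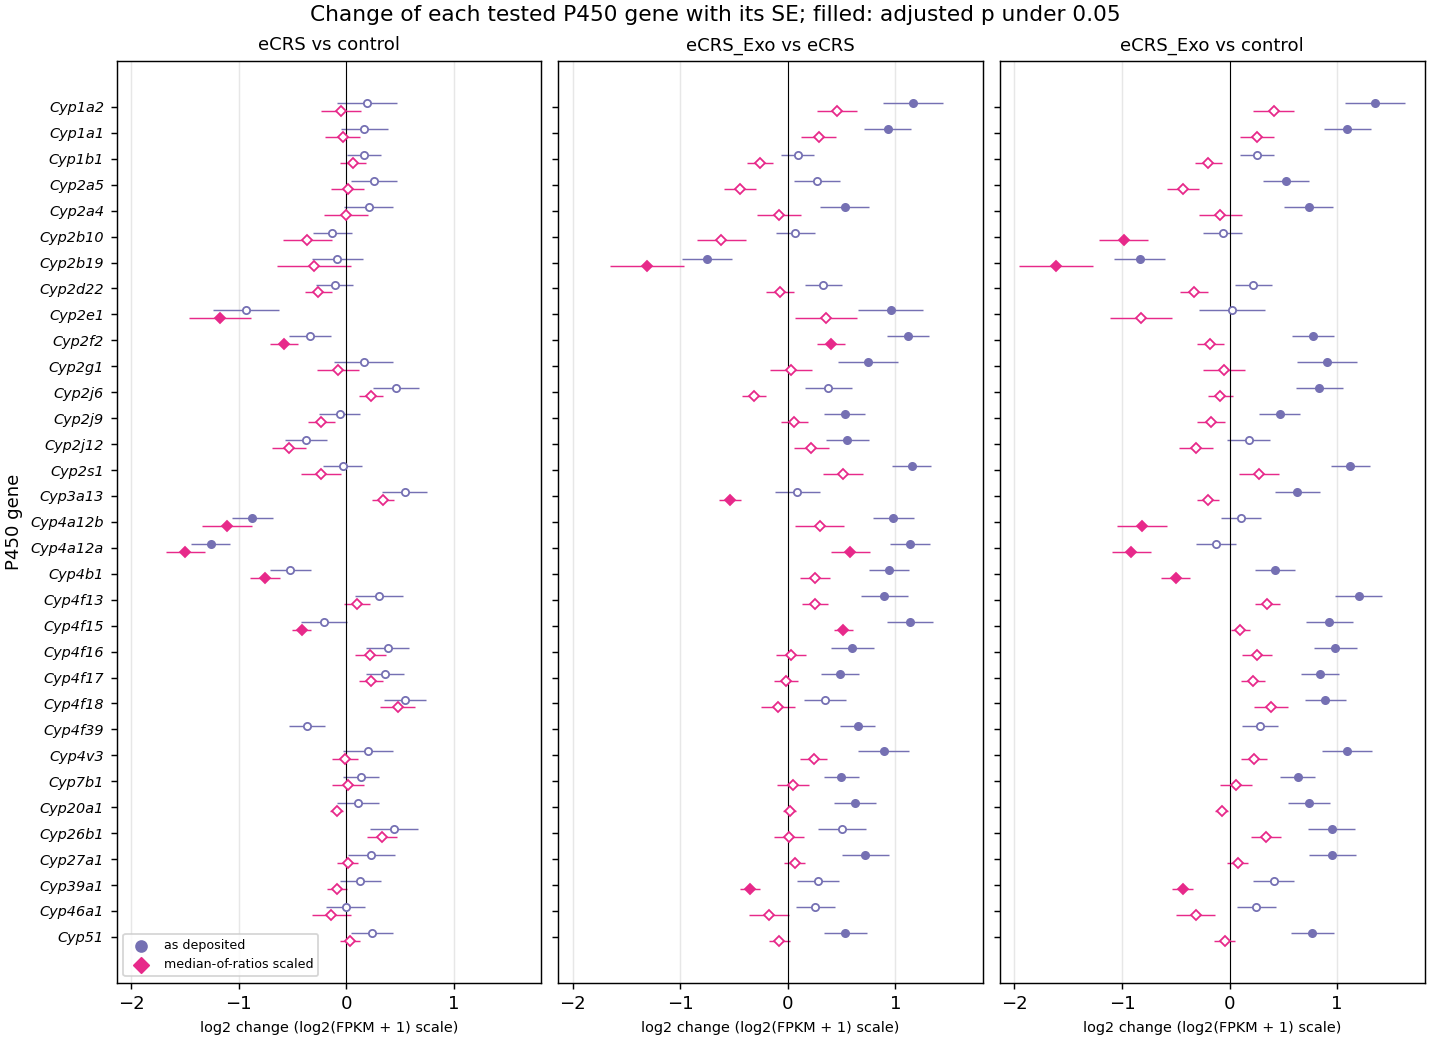
Log2 change on the log2(FPKM + 1) scale of each of the 33 tested P450 genes in the 3 comparisons, with its SE, as deposited (circles) and scaled (diamonds, 32 genes), filled where limma's adjusted p was under 0.05. Scaling moves nearly all points to the left in both comparisons with eCRS_Exo, while Cyp4a12a and Cyp4a12b stand to the left on both scales in eCRS against control.

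The comparison of eCRS_Exo with control gave 22 members higher as deposited, against 84.3% of all genes, and 1 lower, against 0.526%. On scaled values 0 were higher, against 12.3%, and 6 were lower, against 15.6%. This comparison shares its libraries with the others, so its calls are no separate evidence. Cyp2b19 was the 1 member lower on both scales, against 0.523% of genes, and 0 were higher on both, against 12.4%. At an unadjusted limma p under 0.05 the members higher on scaled values were 3, Cyp26b1, Cyp4f13 and Cyp4f18. Control libraries read 8.55, 7.65 and 9.49 FPKM of Cyp2b19, above all eCRS_Exo libraries. The log2 change was -0.84 as deposited (limma adjusted p = 0.00344) and -1.61 scaled (adjusted p = 0.00996). It held without each of the 9 libraries on both scales, and was lost in values rescaled to a common sum (limma adjusted p = 0.164).

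The other members lower on scaled values were Cyp2b10, Cyp39a1, Cyp4a12a, Cyp4a12b and Cyp4b1. The call of Cyp2b10 (log2 change -0.98, limma adjusted p = 0.0137) was lost without control 3 (adjusted p = 0.0501) or eCRS_Exo 1 (0.0553). Scaled Cyp4a12a was 8.07, 6.01 and 7.95 in control and 2.50, 3.43 and 4.47 in eCRS_Exo (log2 change -0.91, limma adjusted p = 0.00732), whereas the deposited change was -0.13 (adjusted p = 0.51). Scaled Cyp4a12b was called with -0.81 (limma adjusted p = 0.0281), against 0.11 as deposited (adjusted p = 0.593). Its scaled call was lost without control 1, control 3, eCRS_Exo 1 or eCRS_Exo 2 (limma adjusted p = 0.0756 to 0.106) and with no filter (0.0584). Cyp4b1 was called in opposite directions: 0.42 as deposited (limma adjusted p = 0.0412) and -0.50 scaled (adjusted p = 0.0251). The deposited call was lost without control 1, control 2, eCRS 3, eCRS_Exo 1 or eCRS_Exo 2 (limma adjusted p = 0.0576 to 0.162). The scaled call was lost without control 1, control 3, eCRS_Exo 1 or eCRS_Exo 2 (limma adjusted p = 0.065 to 0.0906). Whether Cyp4a12a, Cyp4a12b and Cyp4b1 of exosome-treated mice reached or stayed below control thus depends on the scale. The log2 changes of the tested Cyp4f genes and Cyp4v3 were positive on each scale on which they were tested. After scaling none of them was called (limma adjusted p = 0.0527 to 0.425). As deposited all but Cyp4f39 (limma adjusted p = 0.113) were called higher, as were 84.3% of all tested genes.

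Ratios between members within a library do not depend on the scale. Cyp2a5 over Cyp2f2 was 2.12, 2.58 and 2.25 in control, 3.70, 3.08 and 3.73 in eCRS, and 1.86, 2.11 and 1.87 in eCRS_Exo. All eCRS ratios were above those of both other groups, and all eCRS_Exo ratios were below those of control (exact 2-sided permutation p = 0.1 in each comparison, the smallest that 3 against 3 allows). The log2 differences were 0.60 for eCRS against control, -0.85 for eCRS_Exo against eCRS and -0.25 for eCRS_Exo against control. The share of Cyp2a5 in the summed P450 FPKM was likewise 53.1% to 55.1% in control, 58.9% to 60.7% in eCRS and 47.2% to 49.9% in eCRS_Exo, with no overlap between groups. A ratio shows that the genes changed unequally and not which of them changed, and this pair was chosen for display after its values were seen.

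Not every pair of abundant genes moved apart in this way. Cyp2g1 over Cyp2f2 was 0.503, 0.694 and 0.598 in control and 1.10, 0.599 and 0.902 in eCRS, which overlap (exact permutation p = 0.2), as did Cyp1a2 over Cyp2f2 (exact permutation p = 0.2). Cyp2a5 itself was called in 1 comparison, eCRS_Exo against control as deposited, with a log2 change of 0.53 (limma adjusted p = 0.0289), which was -0.43 after scaling (adjusted p = 0.0578). Sustentacular cell markers (5 of 5 detected) were at 2627 to 2655 scaled in control, 2443 to 2868 in eCRS and 2573 to 2665 in eCRS_Exo, so these ranges overlap. Bowman's gland markers (4 of 4) were at 849 to 1002, 689 to 891 and 446 to 649, with the olfactory neuron markers given above. No marker of these lists was at 0 throughout, and the part of cell makeup in the P450 values was not tested.

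**Figure D5:**
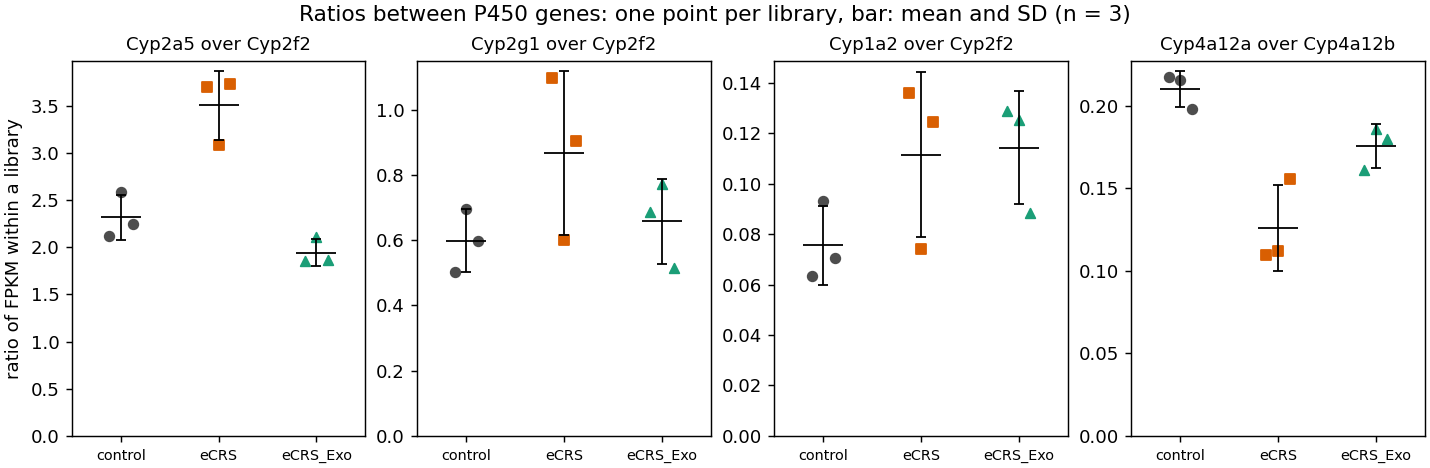
Ratios of FPKM between P450 genes within each library, 1 point per library with the mean and SD of each group (n = 3), axes from 0. Cyp2a5 over Cyp2f2 is highest in the 3 eCRS libraries, and Cyp4a12a over Cyp4a12b is lowest in them, while the ratios of Cyp2g1 and Cyp1a2 to Cyp2f2 overlap between groups.

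P450 genes of sterol and vitamin metabolism were expressed at low to middling levels. Cyp27a1, the mitochondrial sterol hydroxylase that starts the acidic bile acid route, ranged from 6.26 to 19.1 FPKM, and was the 1 tested member of the 4 vitamin D genes. Its relatives in vitamin D activation and breakdown were low: Cyp2r1 reached 0.27 FPKM at most, Cyp27b1 0.0564 and Cyp24a1 0.0168. Of 7 cholesterol and bile acid genes 5 were tested, and 3 of them were called higher as deposited in eCRS_Exo against eCRS, where 63% of all genes were. After scaling 0 were higher, against 13.4%, and Cyp39a1 was lower, against 16.2%. Cyp51, which removes a methyl group from lanosterol, changed by 0.53 as deposited (limma adjusted p = 0.0257) and by -0.08 scaled (adjusted p = 0.555). Cyp7b1, a hydroxylase of oxysterols, changed by 0.50 and 0.04 in the same comparison. Cyp20a1, an orphan P450, had nearly equal scaled values of 4.90 to 5.42 in all 9 libraries.

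The P450 genes of steroid hormone synthesis were at or near 0. None of the 6 was tested: Cyp11b1 and Cyp11b2 were listed at 0, and Cyp19a1, the aromatase, had the highest single value among the others, 0.235 FPKM. Cyp26a1, which breaks down retinoic acid, was at 0.196 to 0.403 FPKM in control and eCRS and reached 1.01 in a single eCRS_Exo library.

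The genes that serve P450 enzymes were read from fixed lists. In eCRS against control limma called 0 members of any of these lists on both scales, where 0.49% of all genes were lower and 2.74% higher. On scaled values alone it called Alas1, Fdft1, Insig1 and Mvk lower and Rara higher. Over all tested genes 4.15% were lower and 5.77% higher on that scale. Alas1 was 1 of 12 tested heme genes and Rara 1 of 9 tested regulators. In eCRS_Exo against eCRS 4 of 9 P450 partners were higher on both scales, Por, Cyb5r1, Cyb5r3 and Fdxr, where 13.4% of all genes were. Por read 117, 63.5 and 89.3 FPKM in eCRS and 237, 209 and 148 in eCRS_Exo, without overlap, with log2 changes of 1.15 as deposited (limma adjusted p = 0.000906) and 0.43 scaled (adjusted p = 0.0124). Cyb5a, the electron donor cytochrome b5, was lower on scaled values (-0.44, limma adjusted p = 0.0199) and 0.28 as deposited (adjusted p = 0.206).

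Of 12 heme genes 3 were higher on both scales in eCRS_Exo against eCRS, Alas1, Alad and Urod, against 13.4% of all genes. Alas1, the rate-limiting enzyme of heme synthesis, had group means of 52.0, 32.8 and 80.6 FPKM in control, eCRS and eCRS_Exo. Its log2 change in eCRS against control was -0.64 as deposited (limma adjusted p = 0.128) and -0.88 scaled (adjusted p = 0.00618), and in eCRS_Exo against eCRS it was 1.25 (adjusted p = 0.000557) and 0.54 (adjusted p = 0.023). Of 16 regulators 9 were tested and 3, the retinoid receptor genes Rarb, Rarg and Rxra, were higher on both scales in that comparison, against the same 13.4%. The retinoid receptor gene Rara was called higher as deposited but not scaled (limma adjusted p = 0.518). The regulator Tiparp was lower on scaled values alone (-0.38, limma adjusted p = 0.0219), as were 16.2% of all genes on that scale. The xenobiotic receptor genes Nr1i2 and Nr1i3 were below the filter, and Hnf4a was at 0 in the mean of every group. Among genes of cholesterol synthesis, Mvk, Sqle and Srebf2 were higher on both scales, whereas Cyp51 of the same pathway was not. Of the P450-fold enzymes with other names, Ptgis was not called on either scale in eCRS_Exo against eCRS, and Tbxas1 was below the filter.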

How the data were processed

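The authors deposited 1 table of FPKM per gene for the 9 nasal mucosa libraries. The submitters' processing notes name fastp 0.19.4, HISAT2, StringTie and the build mm10. Annotation, strand setting and the remaining versions are not given in any source used here. Strand matters for Cyp2f2, which shares 13.5% of its exon bases with an opposite-strand gene. Cyp4f18 and Cyp51 share 9.76% and 3.76% of theirs with the opposite-strand genes Zfp961 and Akap9. Cyp4v3 shares 8.22% with Gm45753, which lies on the same strand, so a strand setting cannot separate them.

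Symbols were found for 21817 of 21930 identifiers, and coordinates came from GENCODE M21. Low values gave no whole reads (16.1% to 21.3% within 0.05 of a whole number, against 10% if evenly spread), so no count test was run. Log2(FPKM + 1) was fitted with limma 3.58.1 (R 4.3.3, trend, 6 residual degrees of freedom) over all genes with at least 1 FPKM in 3 libraries, 12738 as deposited and 12507 scaled, with Benjamini-Hochberg adjustment over all of them. Tested on simulated data, the fit called 49 to 53 of 100 genes changed 2-fold as deposited and 86 to 89 of 100 scaled. The changed genes were drawn from those with a mean log2(FPKM + 1) above 2. These counts thus do not cover members at lower levels, such as Cyp1b1 and Cyp4f18. Among unchanged genes 4 to 11 were called as deposited and 8 to 17 scaled, in fits of 12293 to 12491 genes. Noise was drawn for each gene on its own, without the library-wide shifts of the real values. The simulation therefore does not cover calls that depend on the scale. Promoters came from RefSeq (GRCm38.p6) and matched 77 of 100 members.

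Members, lists and the rule for named genes were chosen with earlier results of these data known. Per-library values were planned for members called on both scales without overlap, the highest member of each tested subfamily and a fixed list, and not all of them are described. Alternatives were another pseudocount, other filters, TPM, other scalings, no trend, 2 groups only, a replicate block and each library left out. Scaled fits with another filter, without trend or with 2 groups only, and calls on both scales with a library left out, were added after seeing the data. The count over the cholesterol synthesis list is not reported here.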

Additional observations from a re-analysis of the deposited data

How the results depend on the processing

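Scale was the choice that moved most. From deposited to scaled values, members lower in eCRS against control went from 2 to 6, members higher in eCRS_Exo against eCRS from 22 to 3 and lower from 1 to 3, and members higher in eCRS_Exo against control from 22 to 0 and lower from 1 to 6. Rescaling to a common sum (TPM) left 1 member lower in eCRS against control and 0 lower in each eCRS_Exo comparison. Fits of 2 groups gave 1 higher in eCRS against control as deposited and 1 higher in eCRS_Exo against eCRS scaled. A scaled filter at 5 FPKM gave 1 higher in eCRS_Exo against control.

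With a library left out, eCRS against control gave 0 to 3 higher and 1 to 3 lower as deposited, and 0 to 1 and 2 to 7 scaled. For eCRS_Exo against eCRS the counts were 12 to 24 higher and 0 to 1 lower, and 1 to 3 and 1 to 6 scaled. For eCRS_Exo against control they were 18 to 24 and 1 to 1, and 0 to 2 and 3 to 7 scaled.

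Between deposited and scaled values the direction turned for 7 of 32 members in eCRS against control, none of them called on either scale, for 12 in eCRS_Exo against eCRS (5 called on at least 1 scale) and for 17 in eCRS_Exo against control (12 called). The called ones in eCRS_Exo against eCRS, with the scaled log2 change, were Cyp2a4 (-0.08), Cyp39a1 (-0.35), Cyp3a13 (-0.54), Cyp4f17 (-0.01) and Cyp51 (-0.08). In eCRS_Exo against control they were Cyp20a1 (-0.07), Cyp2a4 (-0.09), Cyp2a5 (-0.43), Cyp2f2 (-0.18), Cyp2g1 (-0.05), Cyp2j6 (-0.09), Cyp2j9 (-0.17), Cyp39a1 (-0.44), Cyp3a13 (-0.20), Cyp4a12b (-0.81), Cyp4b1 (-0.50) and Cyp51 (-0.05). The divisor of each library sets this shift. Over the named members, settings other than a left-out library left 1179 values with the call, or lack of one, that they had, of which 24 uncalled ones changed sign, while 43 lost a call, 24 gained one and 15 turned.

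Libraries share only a number in their titles: deviations of same-numbered libraries correlated at -0.312 to 0.141 over 9 pairs. With the replicate number as a block, Cyp4a12a and Cyp4a12b stayed lower on both scales in eCRS against control (2 members), and the scaled calls of Cyp2e1 (limma adjusted p = 0.0645) and Cyp2f2 (0.0591) were lost there, which left 4 lower. In eCRS_Exo against eCRS Cyp2f2 lost its scaled call (limma adjusted p = 0.0853), which left 2 members higher on both scales, and in eCRS_Exo against control Cyp4a12b lost its own (0.0507), which left 5 lower. With no counts recovered, the precision of members listed at 0 or below 1 FPKM is not known.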
